A study of Drosophila melanogaster with 12 samples.

Results

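The cytosolic ribosome of Drosophila melanogaster was followed through the messenger RNAs of its protein genes in whole flies. The genes were those whose listed name begins with Rp, then L, S or LP, then a digit, which gave 92 of the 13040 genes in the joined tables. Of these, 38 are named for the small subunit (RpS) and 54 for the large subunit or its stalk (RpL and RpLP). All 92 passed the filter on low counts, which left 12809 genes to test. The name rule takes in a few genes named only for their likeness to a ribosomal protein, and it misses sta and Rack1, a pair of ribosomal proteins under other names.

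Adult flies aged 10 to 11 days, all of the genetic background Canton S, were frozen whole. Maternal and paternal flies were labelled AKHR +/- and had an obese mother or an obese father. Het flies carried the same labelled genotype with no obese parent, and wildtype flies had neither the AKHR allele nor an obese parent. AKHR is the receptor for adipokinetic hormone, an insect peptide that mobilises stored fat and glycogen. Each of the 4 groups held 3 libraries of polyA RNA, with 17212029 to 21370713 listed reads per library. The sources used here do not give the kind of AKHR mutation, the sex or the number of flies in a library. Nothing says more of cultures than that the experimental replicates were separate, so the p-values speak only to library-to-library spread, which may be technical.

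Each ribosome contains one of nearly every ribosomal protein, and the proteins are made in step. In flies, loss of a single copy of many of these genes gives the Minute phenotype of slow growth and thin bristles. Their transcription and translation respond to nutrients through the Tor kinase and the transcription factor Myc, and in flies many of their mRNAs begin with a tract of pyrimidines through which Tor adjusts translation.

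The whole series gave a few facts that bear on these genes. AkhR itself, listed as GRHR, ranged from 71.6 to 84.8 CPM (counts scaled by library size) over the 12 libraries. None of its 6 group contrasts passed the edgeR quasi-likelihood test, with a smallest Benjamini-Hochberg adjusted p of 0.773. Whole-gene counts do not check the genotype labels when the lesion is unknown. Summed markers of ovary and yolk stood at only 55.5 to 64.6 CPM per library, for 15 listed genes of 26, while 20 listed testis genes of 21 summed to 3770 to 4624 CPM. The summed level of 15 listed muscle genes of 15 was 5746 to 6878 CPM, and that of 18 listed digestive gut genes of 22 was 6099 to 8394 CPM.

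Ribosomal protein mRNAs were among the most abundant of the fly. Levels between genes are compared here in the authors' FPKM, which is scaled by gene length. Without 14 genes that are the lower-level member of a pair or a -like gene, the median of the other 78 was 870.2 FPKM, with a range of 329 to 3067. The median over all tested genes was 13.2 FPKM, and 114 of them stood at or above the median of the 78. Small-subunit genes (median 864 FPKM, n = 31) and large-subunit genes (median 870.5 FPKM, n = 47) were at like levels. Read totals over the 12 libraries ran from 609 for RpS28a to 372034 reads.

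**Figure D1:**
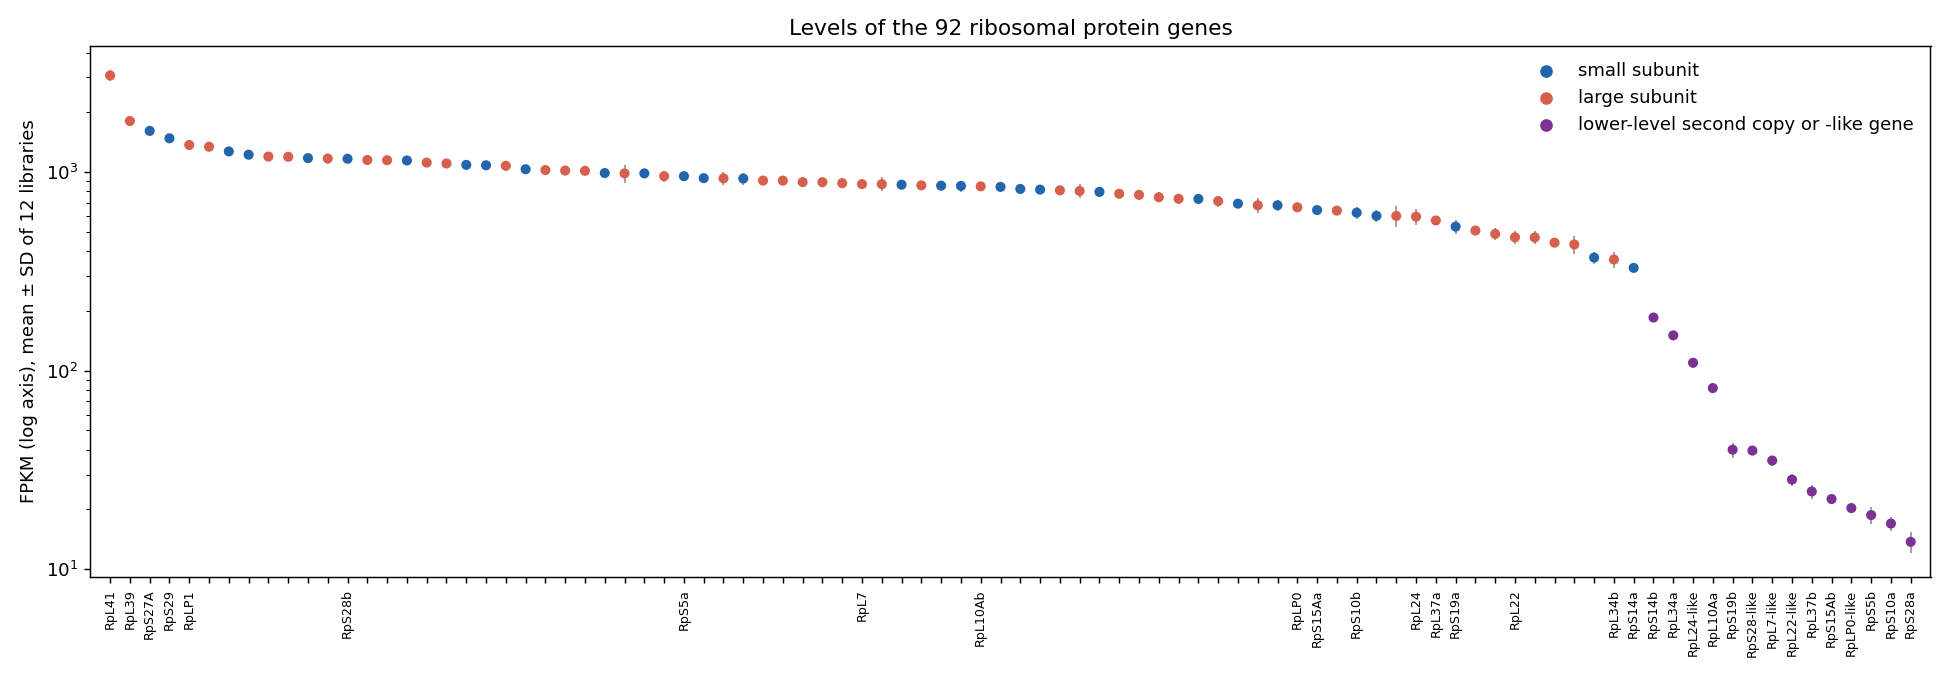
Levels of the 92 ribosomal protein genes in FPKM on a log axis, as mean ± SD of 12 libraries, in order of level and coloured by subunit, with names for the 5 highest genes and for second copies and their partners. The 78 main genes lie between 329 and 3067 FPKM, and 14 second copies or -like genes between 13.7 and 185 FPKM.

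The highest level was that of RpL41, which encodes the smallest protein of the large subunit, at 3067 ± 199 FPKM (SD, n = 12). Its gene model has 313 bases and overlaps the sodium channel gene NaCP60E, and reads of overlapping genes cannot be told apart because the strand setting of the counting is not given. RpL39, another very short gene of 286 bases, followed at 1809 FPKM. Next came RpS27A (1613 FPKM), whose product is made as a fusion with ubiquitin, RpS29 (1481 FPKM) and RpLP1 (1370.3 FPKM), an acidic protein of the stalk that recruits elongation factors. RpL40, the other ubiquitin fusion, stood at 1015 FPKM. FPKM of very short genes depends strongly on the length assigned to them, so the order at the top is a description of these gene models.

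The 5 lowest genes were all second copies or -like genes: RpS28a at 13.7, RpS10a at 17.0, RpS5b at 18.8, RpLP0-like at 20.3 and RpS15Ab at 22.6 FPKM. RpS10a overlaps tau, RpLP0-like overlaps Jra and RpS15Ab overlaps CG12343, so part of their reads could belong to those genes. Fruit flies carry duplicates of several ribosomal protein genes, and some duplicates are known for use in the germ line. As a share of the FPKM of the pair, the second copy took 1.17% for RpS28a beside RpS28b and 1.93% for RpS5b beside RpS5a. The share was 2.66% for RpS10a beside RpS10b, 3.39% for RpS15Ab beside RpS15Aa and 4.14% for RpL37b beside RpL37a. RpL37a on the X chromosome is a different gene from RpL37A on 2L, and the names differ only in case. RpS19b took 7.02% beside RpS19a, and RpL10Aa took 8.79% beside RpL10Ab. These 7 copies therefore stood far below their partners.

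A pair of second copies were closer to their partners. RpL34a took 29.4% of the FPKM of its pair with RpL34b, and RpS14b took 36.0% of its pair with RpS14a. RpS14a and RpS14b are near-identical neighbours on the X chromosome, so their reads may have been split between them by the counting and the share is uncertain.

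Among the -like genes, RpLP0-like took 2.97% beside RpLP0, RpS28-like 3.28% beside RpS28b, and RpL7-like 3.90% beside RpL7. RpL22-like, a relative of RpL22 known from the testis germ line, took 5.69% of its pair. RpL24-like reached 15.6% beside RpL24. All of these -like genes but RpL22-like overlap another listed gene, so part of their reads could belong to it. In yeast, the counterparts of RpLP0-like and RpL24-like act in assembly of the large subunit and are replaced there by the ribosomal protein.

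The share of the pair is given by group for RpS5b and RpL34a. RpS5b made up 2.01 ± 0.121% of its pair in maternal, 2.03 ± 0.0591% in paternal, 1.92 ± 0.0349% in het and 1.74 ± 0.199% in wildtype flies (SD, n = 3 each). RpL34a made up 28.3 ± 0.793% of its pair in maternal, 29.1 ± 0.328% in paternal, 30.7 ± 1.14% in het and 29.5 ± 1.23% in wildtype flies. None of the 14 passed the edgeR test in a group contrast, with a smallest adjusted p of 0.315, for RpS5b in Mat vs WT. RpS5b had 22.0, 18.8 and 18.6 CPM in maternal and 14.4, 17.5 and 18.7 CPM in wildtype libraries, so its groups overlapped.

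Ribosomal protein genes together took a near-constant share of the reads, apart from 1 library. Their share of listed reads was 6.38, 5.68 and 5.59% in maternal replicates 1 to 3, and 5.65, 5.78 and 5.48% in paternal replicates 1 to 3. It was 5.72, 5.64 and 5.48% in het and 5.52, 5.85 and 5.68% in wildtype replicates 1 to 3. Maternal replicate 1 lay above all 11 other libraries, which overlapped freely across groups. Means were 5.89 ± 0.434% in maternal, 5.64 ± 0.152% in paternal, 5.62 ± 0.124% in het and 5.69 ± 0.164% in wildtype flies (SD, n = 3 each). Without maternal replicate 1, the mean of the maternal group was 5.64% (n = 2). In whole flies, fewer cells rich in ribosomes and less of these mRNAs per cell cannot be told apart.

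The rise in maternal replicate 1 ran through almost the whole set. Of the 92 genes, 91 were above the mean of the other 11 libraries there, and 80 had their highest level of all 12 libraries. Maternal replicate 1 was the highest library for 17.5% of all tested genes. The median log2 difference of the 92 genes from the mean of the other 11 libraries was 0.16, against 0.00 over all tested genes. It ranged from -0.01 for RpS28-like to 0.46 for RpL18. Small-subunit genes had a median of 0.14 and large-subunit genes 0.17, so both subunits were higher. On the 5 large chromosome arms, the medians lay between 0.15 and 0.17.

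**Figure D2:**
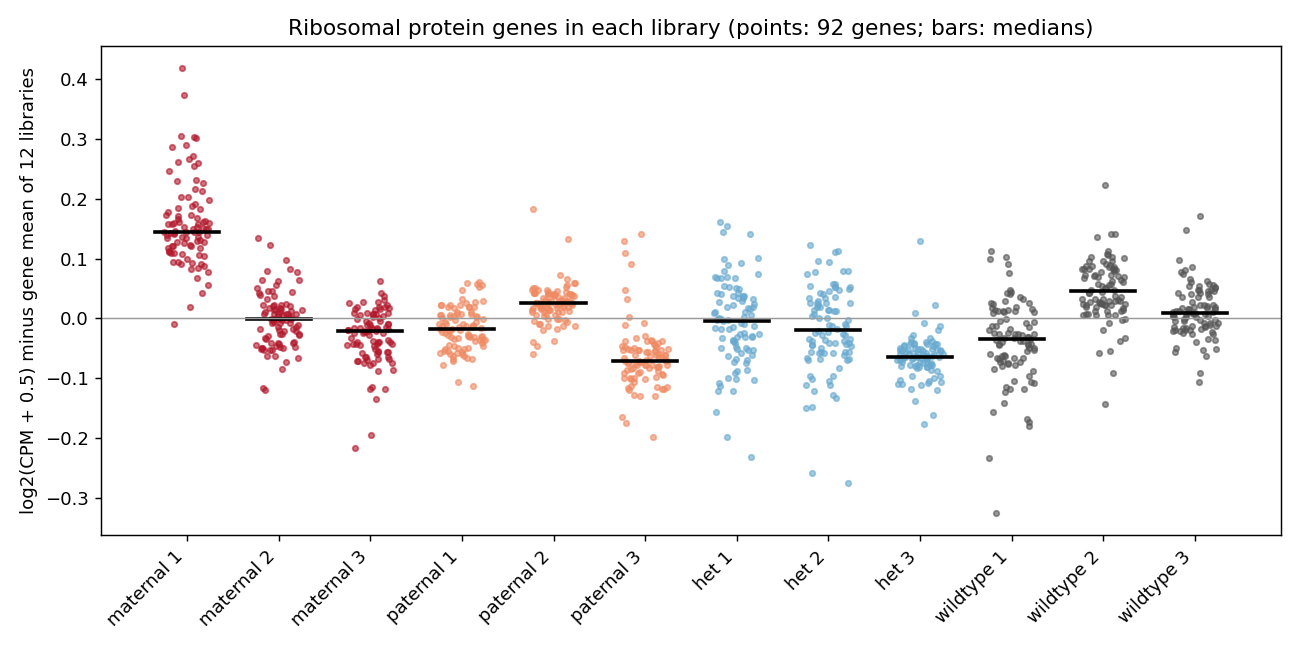
Each point is 1 of 92 ribosomal protein genes in 1 library, as log2(CPM + 0.5) minus the gene's mean over 12 libraries, and bars are medians. The median was 0.15 in maternal 1 and lay between -0.07 (paternal 3) and 0.05 (wildtype 2) in the other 11 libraries.

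RpL18 and RpL13, large-subunit genes chosen here after their values were seen, stood highest in that library. RpL18 had 630.1, 475 and 466 CPM in maternal, 481, 486 and 442 CPM in paternal, 484, 439 and 428 CPM in het, and 401, 465 and 492 CPM in wildtype replicates 1 to 3. Maternal replicate 1 was thus the only RpL18 value above 500 CPM. RpL13 had 658, 496 and 493 CPM in maternal, 514, 509.5 and 464 CPM in paternal, 519, 475 and 479.7 CPM in het, and 451, 534 and 522 CPM in wildtype replicates 1 to 3. RpL18 overlaps BHD and RpL13 overlaps Dref, so part of their reads could belong to those genes.

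Gene length moved together with this rise. Ribosomal protein genes are short: the median gene model was 788 bases, against 1763 bases over all tested genes. In maternal replicate 1, the 2327 other genes above 500 and up to 1000 bases had a median log2 difference of 0.11 from the mean of the other 11 libraries, and the 62 ribosomal protein genes of that length had 0.16. Among genes above 1000 and up to 1500 bases, the median was 0.07 for 2263 other genes and 0.17 for 20 ribosomal protein genes. At up to 500 bases it was 0.14 for 630 other genes and 0.15 for 8 ribosomal protein genes. The 2 ribosomal protein genes above 1500 bases had a median of 0.07, against 0.01 for 3308 other genes of up to 2500 bases in that bin. Genes over 5000 bases had a median of -0.24 (n = 1329), and none of the ribosomal protein genes is that long. Ribosomal protein genes therefore stood above other genes of like length in the middle bins, and level with them among the shortest. The median of other genes above 500 and up to 1000 bases minus that of other genes over 5000 bases, each relative to the mean of all 12 libraries, was 0.32 in maternal replicate 1, against -0.11 to 0.06 in the other 11 libraries.

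**Figure D3:**
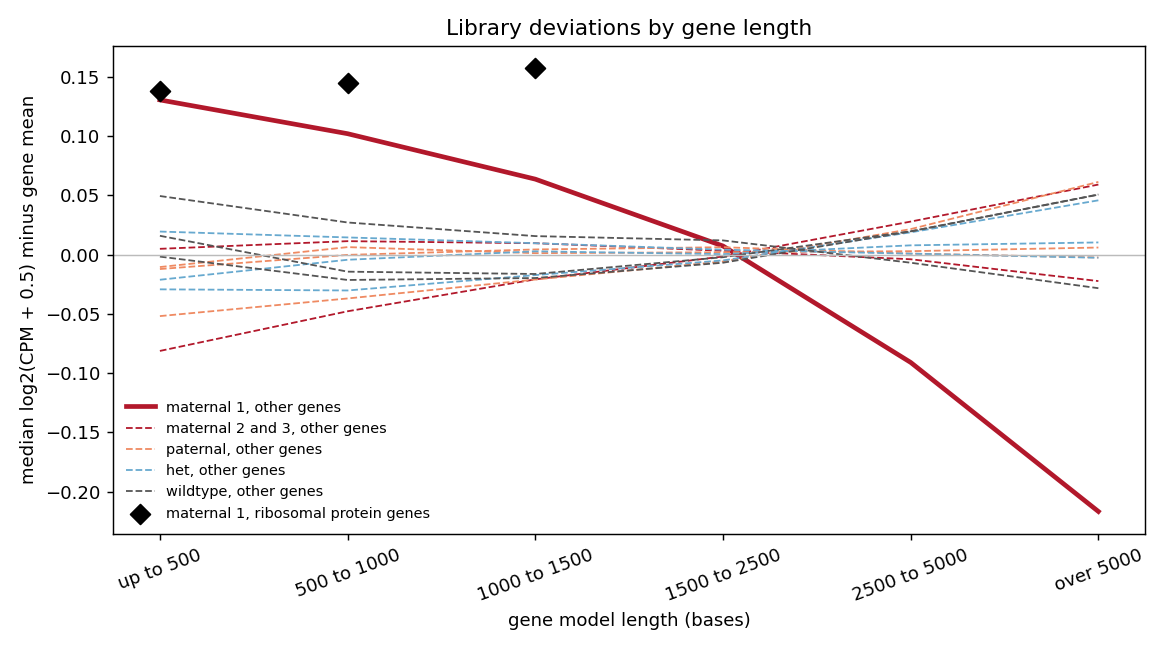
Lines show the median log2(CPM + 0.5) minus gene mean of genes other than ribosomal protein genes, by gene model length, in each library, and diamonds show ribosomal protein genes in maternal 1, in bins holding 8 or more of them. The line of maternal 1 falls with length while the other 11 stay between -0.08 and 0.06, and the diamonds lie above the line in the bins from 500 to 1500 bases.

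Other gene groups moved in maternal replicate 1 as well. Summed testis markers were highest there, at 4624 CPM, and the 15 tested regulators of ribosomal protein genes had a median log2 difference of -0.26. Among those regulators, dm, which encodes fly Myc, had a log2 difference of -0.64, Tor -0.38, S6k -0.31 and Dref -0.24. These 4 regulators have gene models of 9170, 7682, 4885 and 3098 bases, in the range where other genes were also low. The median of other genes was -0.24 over 5000 bases and -0.10 above 2500 and up to 5000 bases. Each of the 4 regulators lay below the median for its length. The ribosomal proteins sta and Rack1 had log2 differences of 0.20 and 0.11 in that library. The part of gene length and of testis RNA in the rise was not tested gene by gene. The median with the length trend taken out is given with each contrast.

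Parental obesity was examined first through the maternal group. Mat vs WT differs in both the labelled genotype and the obese mother, which cannot be told apart there. In Mat vs WT, 0 of 92 genes passed the edgeR quasi-likelihood test at an adjusted p of 0.05, where 0.344% of all tested genes did. The smallest adjusted p was 0.315, and 4 of 92 had an unadjusted p under 0.05, all higher, against 12.1% of all genes. DESeq2 and limma also called 0. The median log2 change was 0.04, against -0.01 over all tested genes, and 67 of 92 were positive. Without maternal replicate 1 the median was -0.02 and 30 of 92 were positive, so the direction rested on that library. At an unadjusted p under 0.05 there were then 5 genes, all lower, against 8.45% of all tested genes. Without maternal replicate 2 there were 12, all higher, against 12.01% of all tested genes. Leaving out maternal replicate 3 gave 18, all higher, against 19.4%, and leaving out wildtype replicate 1 gave 0, against 9.96%. The median was 0.01 without wildtype replicate 1 and 0.06 without wildtype replicate 2 or maternal replicate 2. Leaving out maternal replicate 3 gave 0.07. With the length trend removed the median was 0.01, with 54 of 92 positive.

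Groups that did not overlap were also few in Mat vs WT with all libraries. Maternal libraries all lay above wildtype for 5 genes and all below for 0, where 7.22 and 7.86% of all tested genes did so. With that library left out, the counts were 5 above and 23 below, against 10.9 and 12.9% of all tested genes.

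In Mat vs Het, which sets the obese mother against no obese parent in the same labelled genotype, ribosomal protein genes leaned upward but none passed. The count was 0 of 92, where 0.0156% of all tested genes passed, with a smallest adjusted p of 0.755. At an unadjusted p under 0.05 there were 21 of 92 genes, all higher, against 4.15% of all tested genes. DESeq2 and limma called 0 as well. The median log2 change was 0.06, against -0.00 over all tested genes, and 80 of 92 were positive. Leaving out maternal replicate 1 brought the median to 0.01 and the positive genes to 51 of 92. There were then 9 genes at an unadjusted p under 0.05, of which 8 were higher and 1 lower, against 3.62% of all tested genes. Without maternal replicate 3 there were 40 such genes, against 10.8% of all tested genes, and the median was 0.10. With the length trend removed, the median was 0.04 and 60 of 92 were positive. For 27 of 92 genes (29.3%) every maternal library lay above every het library, and for 0 every one lay below, against 4.28 and 4.15% of all tested genes. With only maternal replicates 2 and 3, 27 lay above and 1 below, against 8.84 and 9.21%.

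The genes with the smallest unadjusted p in this contrast show the pattern. RpS14a, a small-subunit protein of the platform, had 314, 302 and 301 CPM in maternal and 259, 267 and 277 CPM in het libraries. The groups did not overlap, and the log2 change was 0.19 (SE 0.0444, edgeR adjusted p = 0.755). Paternal libraries had 293, 294 and 281 CPM and wildtype libraries 294, 290.2 and 296 CPM, so the het libraries were the low ones of the 12 for this gene. Its reads may be shared with RpS14b, which had an unadjusted p under 0.05 in the same direction.

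RpL24, a large-subunit protein at the interface with the small subunit, had 596, 510.2 and 492 CPM in maternal and 449.8, 436 and 448 CPM in het libraries, a log2 change of 0.26 (SE 0.0683). RpS26, a small-subunit protein near the exit of the mRNA channel, had 872, 780.2 and 750.2 CPM in maternal and 714, 691 and 724 CPM in het libraries, a log2 change of 0.17 (SE 0.0534). RpL24 and RpS26 each had their highest value in maternal replicate 1 and an edgeR adjusted p of 0.993. Without that library, the changes in maternal against het flies were 0.17 for RpL24 and 0.11 for RpS26.

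For RpL24 and RpS26, every paternal library also lay above every het library. RpL24 had 504, 492 and 469 CPM in paternal and 429, 485 and 510.0 CPM in wildtype libraries. RpS26 had 757, 770.2 and 754 CPM in paternal and 730.1, 783 and 785 CPM in wildtype libraries. For RpL24, wildtype replicate 1 was the lowest of all 12 libraries, below every het library.

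In Mat vs Pat, which compares the sex of the obese parent, 0 of 92 genes passed, where 0.0156% of all tested genes did. None of the 92 had an unadjusted p under 0.05, against 2.75% of all tested genes, and DESeq2 and limma called 0. The median log2 change was 0.06, against -0.00 over all tested genes, with 87 of 92 positive. That lean was 0.01 with 58 of 92 positive without maternal replicate 1, and 0.03 with 81 of 92 positive with the length trend removed. Without maternal replicate 3 the median was 0.10 and 23 genes had an unadjusted p under 0.05, all higher, against 10.2% of all tested genes. Without maternal replicate 2 there were 6, against 3.93% of all tested genes. Groups did not overlap for 3 genes higher and 0 lower, against 3.25 and 3.19% of all tested genes. With only maternal replicates 2 and 3, the counts were 3 higher and 1 lower, against 7.43 and 7.42%.

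In Pat vs Het, 0 of 92 genes passed, where 0.00781% of all tested genes did. There were 4 of 92 at an unadjusted p under 0.05, 3 higher and 1 lower, against 2.11% of all tested genes, and DESeq2 and limma called 0. RpLP2 and RpS14a were among the higher genes, and the lower one was RpS27. The median log2 change was 0.01, against 0.00 over all tested genes, with 52 of 92 positive. It was 0.01, with 56 of 92 positive, when the length trend was removed. Its direction was not stable: the median was -0.01 without het replicate 3 and -0.02 without paternal replicate 2, against 0.02 without het replicate 1 and 0.03 without paternal replicate 3. Every paternal library lay above every het library for 11 genes and below for 0, against 4.28 and 4.31% of all tested genes.

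**Figure D4:**
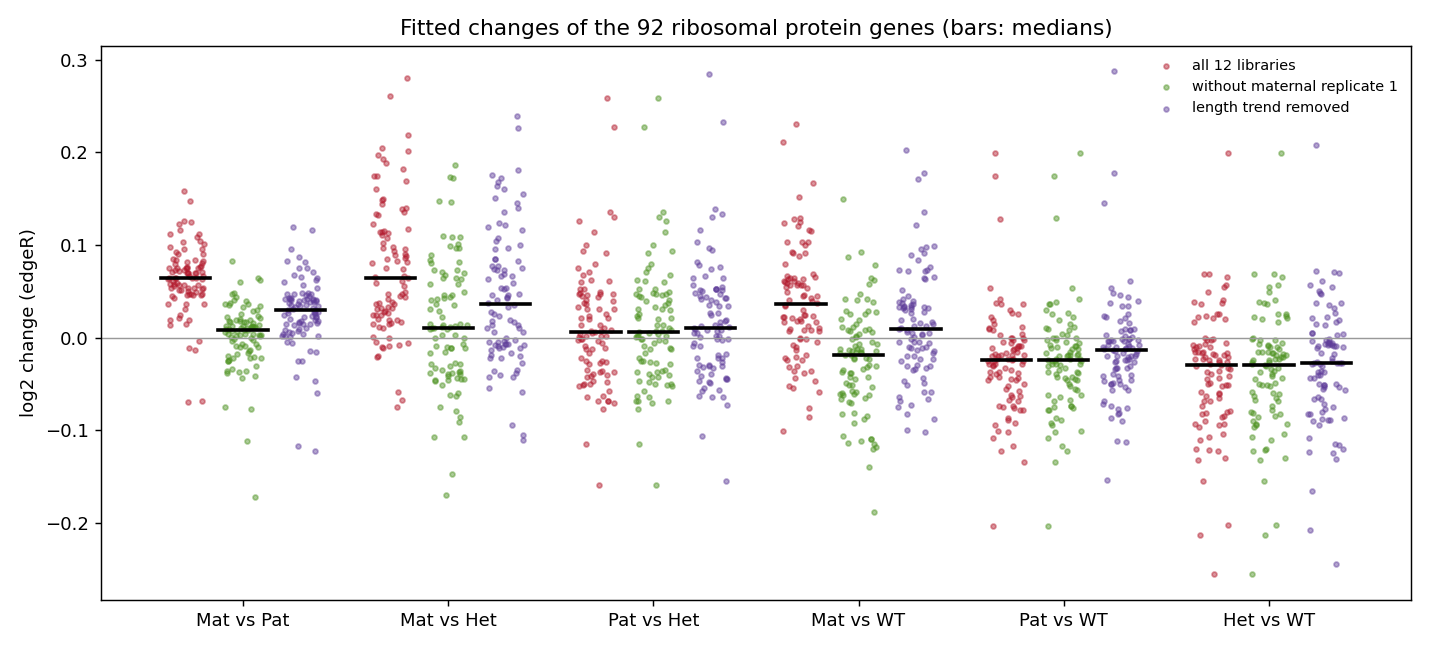
Fitted log2 changes of the 92 ribosomal protein genes in 6 contrasts, first-named group over the other, for all 12 libraries, without maternal replicate 1 and with the length trend removed, and bars are medians. In Mat vs Pat the median is 0.06 with all libraries and 0.01 without maternal replicate 1. Het vs WT holds no maternal library, so its median of -0.03 is the same in both. That median is -0.01 without het replicate 3 or wildtype replicate 2 (fits not drawn).

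The labelled AKHR genotype without parental obesity was examined in Het vs WT, where the ribosomal protein genes leaned downward. Again 0 of 92 passed, where 0.593% of all tested genes did, with a smallest adjusted p of 0.0973. DESeq2 and limma called 0, and 10 of 92 had an unadjusted p under 0.05, 1 higher and 9 lower, against 10.7% of all tested genes. The median log2 change was -0.03, against -0.01 over all tested genes, and 74 of 92 were negative. The size depended on single libraries: without het replicate 3 the median was -0.01 with 52 of 92 negative, and without wildtype replicate 2 it was -0.01 with 54 negative. Without wildtype replicate 1 it was -0.05 with 76 negative. Removing the length trend gave -0.03 with 67 negative. With no scaling between libraries beyond read totals, the median was -0.01 against 0.01 over all tested genes, and 54 of 92 were negative. Every het library lay below every wildtype library for 22 of 92 genes (23.9%) and above for 1 (1.09%), against 9.63 and 9.76% of all tested genes.

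3 genes, RpS21, RpLP2 and RpL38, had the smallest p in Het vs WT, and their calls changed with the fit. RpS21, a small-subunit protein, lies on 2L from 2856070 to 2857041 in dm3, plus strand. It had 261, 260.0 and 264 CPM in het libraries, against 293, 313 and 304 CPM in wildtype libraries. The groups did not overlap. The log2 change was -0.21 (SE 0.0552, edgeR adjusted p = 0.0973), with a 95% interval from -0.33 to -0.10.

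RpS21 passed the threshold in several other fits. With the replicate number as a block, its edgeR adjusted p was 0.0264, where 2.22% of all tested genes passed. With only the 6 het and wildtype libraries, its edgeR adjusted p was 0.00949, where 1.44% of all tested genes passed, and without maternal replicate 1 it was 0.00563. With the length trend removed, RpS21 was the only one of the 92 called, where 1.59% of all tested genes passed, and it was again the only one when maternal replicate 1 was also left out, where 2.02% did. With the trend removed and the replicate block, 7 of the 92 were called, all lower in het flies, where 6.39% of all tested genes passed. In the authors' deposited table its log2 change was -0.19 and its adjusted p 0.00229. Over all alternatives the adjusted p ran from 0.000275 to 0.409, and the log2 change only from -0.24 to -0.19. RpS21 lies on the chromosome arm that carries AkhR, where 2.16% of 2454 tested genes were called in Het vs WT, against 0.0501 to 0.346% on the other 4 large arms. The part of the arm in the RpS21 difference was not tested.

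The other groups give RpS21 side values on the same wildtype libraries. Maternal libraries had 326, 284 and 276 CPM and paternal libraries 282, 284 and 270.4 CPM. Its log2 change was -0.04 in Mat vs WT (edgeR adjusted p = 0.806) and -0.12 in Pat vs WT (edgeR adjusted p = 0.447).

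RpLP2, an acidic protein of the ribosomal stalk, lies on 2R from 12473599 to 12474237 in dm3, plus strand. It had 534, 518 and 599.8 CPM in het libraries, against 613, 652 and 707 CPM in wildtype libraries. The groups did not overlap, though het replicate 3 came close to wildtype replicate 1. The log2 change was -0.26 (SE 0.0742, edgeR adjusted p = 0.172). The edgeR adjusted p was 0.0237 without maternal replicate 1, where 1.32% of all tested genes passed. The authors' deposited table gives a log2 change of -0.21 and an adjusted p of 0.0102.

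Maternal libraries had 752, 641 and 612 CPM of RpLP2 and paternal libraries 652, 659 and 622 CPM, so both lay above all 3 het libraries. In maternal against het flies the log2 change was 0.28 (SE 0.0742, edgeR adjusted p = 0.993). In paternal against het flies it was 0.23 (SE 0.0742, edgeR adjusted p = 1.00). Other members of the stalk behaved differently by value: RpLP0 had a log2 change of -0.03 and RpLP1 of -0.02 between het and wildtype flies (edgeR adjusted p = 0.899 and 0.959). Whether RpLP2 differs from RpLP0 and RpLP1 was not tested.

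RpL38, a large-subunit protein of the Minute class, lies on 2R from 403502 to 403961 in dm3, minus strand. It had 311, 309 and 298 CPM in het libraries, against 346, 376 and 334 CPM in wildtype libraries, without overlap. The log2 change was -0.20 (SE 0.0650, edgeR adjusted p = 0.220). With the replicate number as a block the edgeR adjusted p was 0.0121, and with only the 6 libraries compared it was 0.0259. The authors' deposited table gives a log2 change of -0.17 and an adjusted p of 0.0242.

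**Figure D5:**
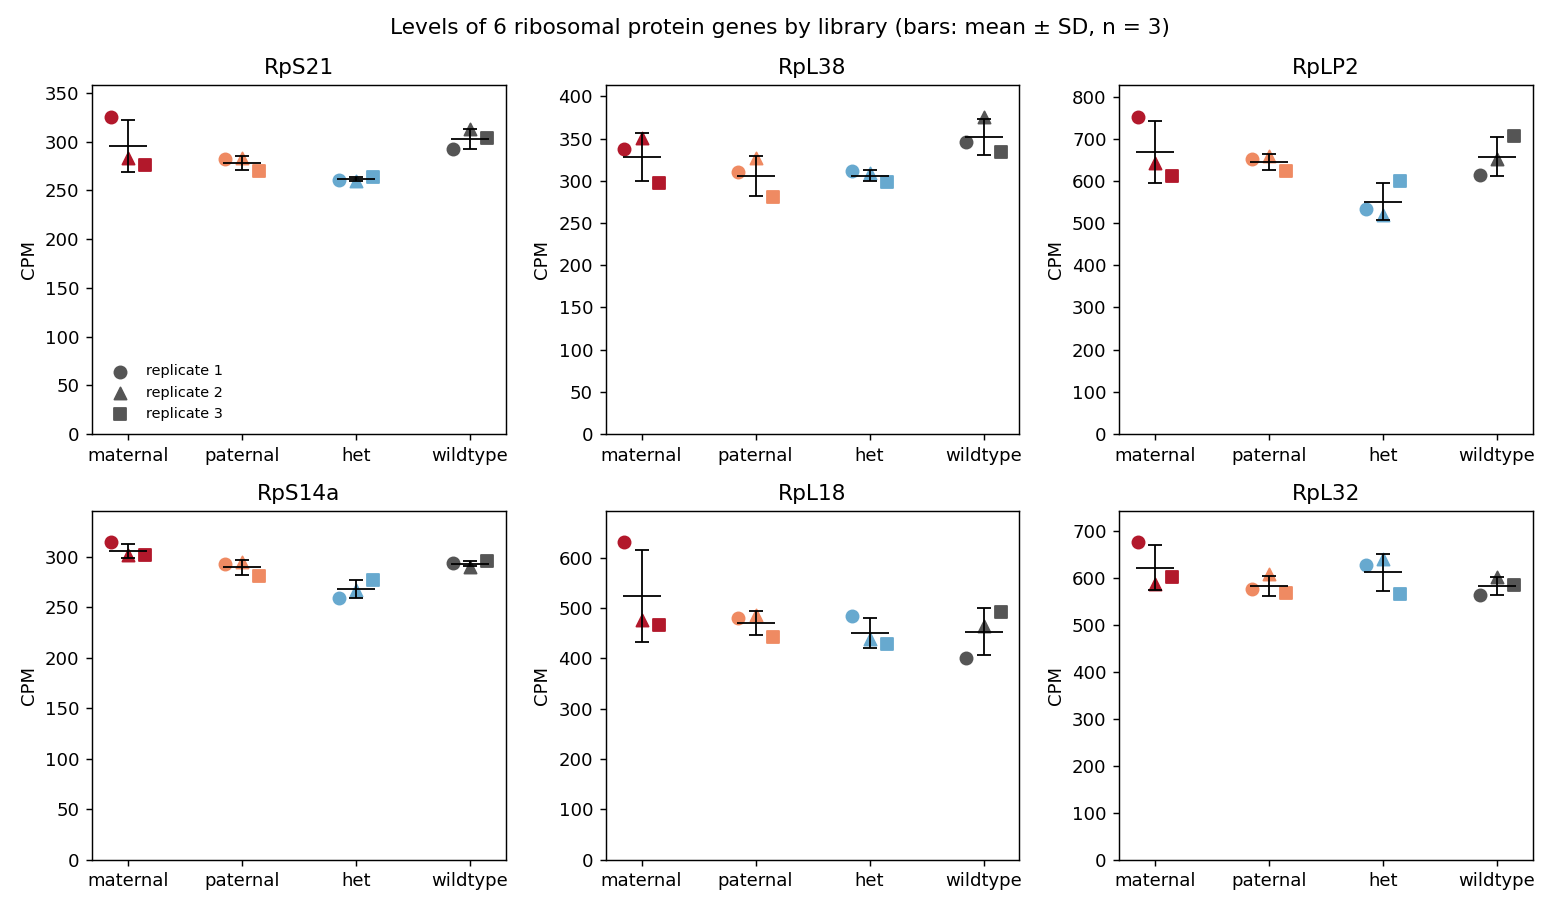
Levels of 6 ribosomal protein genes in CPM in each library, with mean ± SD of 3 libraries as bars and replicate numbers as symbols. For RpS21, RpLP2 and RpL38 all het libraries lie below all wildtype libraries. Maternal replicate 1 is the highest of 12 for RpS21, RpLP2, RpS14a, RpL18 and RpL32, and wildtype replicate 2 is for RpL38.

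Among the other genes with an unadjusted p under 0.05 in Het vs WT, the lower ones included RpS14a, RpL29, RpL15, RpL39 and RpL23. Their log2 changes lay between -0.15 (RpL29) and -0.11 (RpL23). RpS19b, a second copy, was the higher one, at 27.0 to 29.8 CPM in het and 23.4 to 25.9 CPM in wildtype libraries. Its log2 change was 0.20, with an edgeR adjusted p of 0.352.

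Pat vs WT differs in both the labelled genotype and the obese father, which cannot be told apart there. In this contrast 0 of 92 genes passed, where 0.523% of all tested genes did, with a smallest adjusted p of 0.233. DESeq2 and limma called 0, and 3 of 92 had an unadjusted p under 0.05, all lower, against 10.5% of all tested genes. These were RpL38, RpL29 and RpS21. The median log2 change was -0.02, against -0.01 over all tested genes, and 72 of 92 were negative. Without paternal replicate 3 the median was -0.00 with 49 of 92 negative, and without wildtype replicate 2 it was -0.01 with 51 negative. It was -0.04 without paternal replicate 2 or wildtype replicate 1. With the length trend removed the median was -0.01, with 66 negative. Without scaling beyond read totals, 53 of 92 were negative. Paternal libraries all lay below wildtype for 10 genes and above for 2, against 9.86 and 9.34% of all tested genes.

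RpL38 led this contrast too. Paternal libraries had 310.0, 327 and 281 CPM, against 346, 376 and 334 CPM in wildtype libraries. The log2 change was -0.20 (SE 0.0650, edgeR adjusted p = 0.233), and with the replicate number as a block the edgeR adjusted p was 0.0119, where 1.61% of all tested genes passed. With the block and the length trend removed, RpL38 and RpS21 were called, both lower in paternal flies, where 5.33% of all tested genes passed. Maternal libraries had 337, 351 and 297 CPM, a log2 change of -0.10 against wildtype (edgeR adjusted p = 0.537). The 3 contrasts against wildtype share the same wildtype libraries.

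The intervals bound how far these genes could have moved. The median standard error of a log2 change was 0.0554 in Het vs WT. The 95% interval lay within 0.5 log2 units of 0 for all 92 genes when het or maternal flies were set against wildtype, and in Mat vs Pat. It did so for 91 genes when paternal flies were set against wildtype, and when either obese-parent group was set against het flies. The exception each time was RpS28a, with 609 reads in all 12 libraries. Within 0.3 log2 units, the count ran from 82 genes in Mat vs Het to 89 in Mat vs Pat.

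The replicate number in the titles was tested across groups, since the design describes separate experimental replicates and the titles alone give the numbers. Only RpL38 of the 92 passed the edgeR F test (adjusted p = 0.0233), where 4.3% of all tested genes did. Its level was 326 ± 18.4 CPM in replicates numbered 1, 341 ± 29.2 CPM in those numbered 2 and 303 ± 22.7 CPM in those numbered 3 (SD, n = 4 each). In every group, replicate 3 had the lowest RpL38 value. RpL38 lost this call when any of 7 libraries was left out, with an adjusted p of up to 0.120 (without paternal replicate 3). Without maternal replicate 1 the count was 4, namely RpL38, RpL10, RpL14 and RpS15Aa, where 7.84% of all tested genes passed. Without wildtype replicate 1 it was 6, where 7.94% did, and without maternal replicate 2 it was 2, where 4.04% did. With the length trend removed it was 1, again RpL38, where 6.72% of all tested genes passed.

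The next genes by p were RpL10Aa, RpL10 and RpL14. RpL10Aa, a second copy of the protein of the L1 stalk, had 71.0, 65.2 and 60.9 CPM in maternal and 66.3, 62.4 and 61.5 CPM in paternal replicates 1 to 3. It had 64.8, 64.6 and 61.2 CPM in het and 68.7, 61.7 and 61.9 CPM in wildtype replicates 1 to 3 (edgeR adjusted p = 0.0904). The library numbered 1 was the highest of its group in all 4 groups.

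RpL10, a large-subunit protein that joins late in assembly, had 1042, 964 and 912 CPM in maternal and 925, 978 and 889 CPM in paternal replicates 1 to 3. It had 989.5, 989 and 912 CPM in het and 974, 1018 and 948 CPM in wildtype replicates 1 to 3 (edgeR adjusted p = 0.0958). Replicate 3 was the lowest of each group.

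RpL14, another large-subunit protein, had 658, 569.9 and 567 CPM in maternal and 569, 604 and 550.1 CPM in paternal replicates 1 to 3. It had 629, 623 and 549 CPM in het and 579, 626 and 565 CPM in wildtype replicates 1 to 3 (edgeR adjusted p = 0.132). Here too replicate 3 was the lowest of each group. The share of reads in all ribosomal protein genes was 5.82 ± 0.384% in libraries numbered 1, 5.74 ± 0.0936% in those numbered 2 and 5.56 ± 0.0976% in those numbered 3 (SD, n = 4 each). Without maternal replicate 1, libraries numbered 1 averaged 5.63 ± 0.102% (n = 3).

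Ribosomal protein genes varied about as much between libraries as other abundant genes. The median coefficient of variation over the 12 libraries was 4.90% for the 92 genes and 4.77% for the 2058 other genes of at least 100 CPM. That cut was not applied to the 92 genes, which include low second copies such as RpS28a. Without maternal replicate 1 the median was 3.82% for the 92 genes and 4.15% for the others. The steadiest gene without that library was RpLP0, the base of the stalk, at 1.83%, and the least steady was RpS28a at 11.7%. RpL32, the fly gene rp49 that is widely used as a reference in quantitative PCR, varied by 5.65% over the 12 libraries and 4.28% without maternal replicate 1. It had 677, 589 and 604 CPM in maternal, 577, 608 and 568 CPM in paternal, 629, 641 and 568 CPM in het, and 565, 602 and 586 CPM in wildtype replicates 1 to 3. None of its 6 contrasts passed the edgeR test, with log2 changes from -0.07 in Pat vs Het to 0.09 in Mat vs Pat.

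The rest of the translation machinery showed no called genes in the group contrasts. The lists held 9 tested elongation factors, 25 initiation factors, 22 ribosome biogenesis genes, 15 regulators and the ribosomal proteins sta and Rack1, and 0 of each passed the edgeR test in any of the 6 contrasts. With the replicate number as a block, the initiation factor gene eIF-4B fell in het against wildtype flies (log2 change -0.16, edgeR adjusted p = 0.0264). sta, the small-subunit protein SA, ranged from 820.0 to 1015 CPM, and Rack1, a scaffold on the small subunit, from 972 to 1110.4 CPM, both highest in maternal replicate 1.

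Among the tissue markers, only accessory gland genes had members past the threshold in the fit without the block. Summed over 15 listed genes of 16, they stood at 5015 to 5271 CPM in het libraries, 5017 to 5138 CPM in paternal libraries and 4869 to 5520.3 CPM in maternal libraries, against 5671 to 6215 CPM in wildtype libraries. Acp36DE fell in het flies (log2 change -0.21, edgeR adjusted p = 0.0433) and in paternal flies (log2 change -0.22, edgeR adjusted p = 0.0363), each against wildtype. Acp29AB fell in paternal against wildtype flies (log2 change -0.30, edgeR adjusted p = 0.0358). Both lie on 2L.

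Gut markers were separated from wildtype in the same way, with sums of 6099 to 7270.1 CPM in het, 6476 to 7188.5 CPM in paternal and 6543 to 7509 CPM in maternal libraries, against 7628 to 8394 CPM in wildtype libraries. The summed elongation factors were also lower, at 13715 to 14119 CPM in het, 13477 to 14293 CPM in paternal and 13822 to 14444 CPM in maternal libraries, against 14460.4 to 14676 CPM in wildtype libraries. The highest maternal sum thus came close to the lowest wildtype sum. Ef1alpha48D alone gave 7594 to 8569 CPM of the sum. Over the 9 tested elongation factors, the median log2 change was -0.05 for Het vs WT, -0.01 for Pat vs WT and 0.01 for Mat vs WT. Summed testis markers lay above wildtype, at 3985 to 4269 CPM in het and 4037 to 4247 CPM in paternal libraries. They stood at 3960.1 to 4624 CPM in maternal and 3770.1 to 3952 CPM in wildtype libraries.

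With the replicate number as a block, more tissue markers passed the edgeR test. The gut genes Jon25Biii (log2 change -0.61, edgeR adjusted p = 0.0452) and Amy-d (log2 change -0.18, edgeR adjusted p = 0.0143) fell in het against wildtype flies. The muscle gene TpnC41C fell in paternal flies (log2 change -0.22, edgeR adjusted p = 0.0279) and Mhc in maternal flies (log2 change -0.14, edgeR adjusted p = 0.0497), each against wildtype. The testis genes Mst84Db, Mst98Ca and dj rose in maternal against wildtype flies, with log2 changes of 0.22, 0.18 and 0.20 and edgeR adjusted p of 0.0385, 0.0315 and 0.0210. Of the 15 accessory gland genes, the block gave 2 lower genes in Mat vs WT, 5 lower in Pat vs WT and 3 lower in Het vs WT. Of all tested genes, the block called 1.77% in Mat vs WT, 1.61% in Pat vs WT and 2.22% in Het vs WT, in either direction. The part of these tissue markers in the lean of the ribosomal protein genes was not tested.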

How the data were processed

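RNA of whole flies was sequenced after polyA selection, 12 libraries in 4 groups of 3. The authors deposited read counts per gene, used here for all tests, and FPKM, used for levels between genes, both per the file headers. Their deposited log2 fold changes, and a score read here as minus 10 times log10 of an adjusted p, were used only where named. That reading was checked against DESeq2 on the same 6 libraries (median ratio 1.00 in Het vs WT). Alignment with Novoalign, the dm3 build and DESeq are named in the submitters' processing notes, with versions, annotation and strand setting not given in the sources used here.

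The 5 deposited tables gave 13040 genes, of which 58 lacked counts in some library and were left out. Counts were fitted with edgeR 4.0.16 in R 4.3.3 (TMM, filterByExpr with minimum count 10 and total 15, robust quasi-likelihood fit of group means over all 12 libraries). Benjamini-Hochberg adjustment ran over 12809 genes, with a threshold of 0.05. The biological coefficient of variation was 0.0591. DESeq2 1.42.0 and limma 3.58.1 were alternatives. The replicate number was tested in a model of group plus number. Levels by library are TMM-scaled CPM, and library deviations use log2(CPM + 0.5). The length trend was a lowess curve (span 0.3) of the log2 deviation on log2 gene length in each library, used as an offset, and was added after seeing the data. The fitting was tested on simulated data. Values of 1 gene named by the rule are not reported here. Of the 92 genes, 35 overlap another listed gene.

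Members, lists and tests were chosen with earlier results of these data known. Library values are given for genes past the threshold in a group contrast, filled up to 6 by smallest unadjusted p, and for the 4 of smallest p in the replicate test. Levels are given for the 5 highest, the 5 lowest and every second copy. RpL18, RpL13, RpL32, RpS5b, RpS19b and the remaining named genes were picked with their values in view.

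Every group has replicates 1 to 3. The design names separate experimental replicates with a set of samples in each, and the titles are the only source that ties a number to a set. Deviations from the group mean had a mean r over all tested genes of 0.119 in same-numbered pairs, against -0.0592 in the remaining pairs. The deviations of a gene sum to 0 within each group, so the mean of the remaining pairs follows closely from that of same-numbered pairs. Only 11 of 18 same-numbered pairs were above 0.1, with a minimum of -0.03. Still, 11 of the 12 libraries had their highest mean r with the same-numbered libraries of other groups. Over the 92 genes alone the mean r was 0.00111, against -0.000284, with 6 of 18 above 0.1. Over all tested genes the numbers thus marked some shared deviation, while over the 92 genes the mean r did not, so the pairing was not settled. The fit behind the main counts has no block, and values with the block are given as an alternative where they change a call.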

Additional observations from a re-analysis of the deposited data

How the results depend on the processing

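Of the counts, shares and medians, 260 values under alternatives stayed within their margin and 27 did not. In Het vs WT the count of called genes, 0 of 92, became 2 with the replicate block and 2 with only the 6 libraries compared. In those fits 2.22 and 1.44% of all tested genes passed. The count became 1 with the length trend removed and 1 with that trend removed without maternal replicate 1. There 1.59 and 2.02% of all tested genes passed. The count became 7 with the trend removed and the replicate block (RpS21 and RpL38 among them, all lower, where 6.39% of all tested genes passed). Leaving out each library in turn gave 0 to 2, with 2 without maternal replicate 1 (RpS21, RpLP2) and 1 without maternal replicate 3 (RpS21). The shares of all tested genes were 1.32 and 1.00% in those 2 fits. In Pat vs WT the count became 1 with the replicate block and 2 with the trend removed and the block (RpL38, RpS21). Of all tested genes, 1.61 and 5.33% passed there. The block changed no other call of a ribosomal protein gene in the 6 group contrasts. The replicate-number count, 1, ran from 0 to 6 when each library was left out. In those fits 1.87% (without het replicate 1) to 7.94% (without wildtype replicate 1) of all tested genes passed. The share of reads without the 20 most abundant genes of each library was 6.46% in maternal, 6.18% in paternal, 6.17% in het and 6.27% in wildtype flies. Over genes that overlap no other listed gene it was 3.69, 3.54, 3.52 and 3.57% in the same order. Leave-one-out means ran from 5.64 to 6.03% in maternal, 5.56 to 5.72% in paternal, 5.56 to 5.68% in het and 5.60 to 5.77% in wildtype flies. Medians of the log2 change ran, with each library left out, from -0.02 to 0.07 in Mat vs WT and from -0.02 to 0.03 in Pat vs Het, both across 0. They ran from -0.05 to -0.01 in Het vs WT, from -0.04 to -0.00 in Pat vs WT, and from 0.01 to 0.10 in both Mat vs Het and Mat vs Pat. The cause of these shifts was not tested. For single named genes, 181 values kept their direction and side of the threshold, 12 gained a call, 7 lost one and 0 reversed. Depth limits RpS28a most.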
